A study of Homo sapiens with 9 samples.

Results

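The genes described here build and run the lysosome: 41 genes chosen by symbol out of 56541 genes in the table. They comprise 16 genes of the vacuolar proton pump (V-ATPase), 9 lysosomal peptidases, 4 glycosidases, 5 genes of lipid breakdown and transport, the granulin precursor GRN, 4 further lysosomal membrane proteins, and the transcription factors TFEB and TFE3. All 41 were found in the table by their symbol, each in 1 row. RNA was measured in MOLM-13, a human acute myeloid leukaemia line with monocytic features, in 3 groups of 3 libraries. The shCONTROL group carried a control hairpin and the shBCLAF1 group a hairpin against BCLAF1, a nuclear protein that associates with RNA and with splicing factors. The third group, RIP, is RNA precipitated with BCLAF1 from shCONTROL cells and from more cells per sample. Every group received doxycycline at 200 ng/µL for 4 days, and all 9 samples carry the same batch label. The labels name 1 cell line and 1 hairpin name per arm. No label says whether replicates were separate cultures, so p-values measure the spread between these libraries only. The precipitation has no mock control among the labels, and its reference here is shCONTROL RNA-seq.

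Lysosomes break down proteins, sugars, lipids and nucleic acids taken in from outside or delivered by autophagy. The V-ATPase acidifies them: its cytosolic V1 sector hydrolyses ATP and its membrane V0 sector carries protons into the lumen. Hydrolases and membrane proteins are made at the endoplasmic reticulum and sorted onward, while V1 subunits are made in the cytosol. TFEB and TFE3 switch on many of these genes when mTORC1, the nutrient-sensing kinase complex at the lysosome surface, is inactive. They bind a palindrome built on the E-box core CACGTG and known as the CLEAR element. Monocytes and macrophages are rich in lysosomes, and lysosomal genes commonly rise as myeloid cells mature.

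Promoters are shown first because TFEB and TFE3 bind the CLEAR element, whose core was found in 8 of the 30 members with a promoter sequence. RefSeq promoter sequences (GRCh38.p14, 250 bases before to 50 after each gene start) were matched by symbol for 30 of the 41 genes. ASAH1, ATP6V0E1, ATP6V1A, ATP6V1B2, ATP6V1C1, ATP6V1H, CTSB, CTSS, HEXA, LAMP2 and PSAP had none. LAMP1, a major glycoprotein of the lysosome membrane, and MCOLN1, a lysosomal calcium channel, had several E-box cores. Their windows run from 250 bases before to 20 bases after the gene start, 5′ to 3′, with CACGTG in capitals.
LAMP1, chr13:113296989-113297258, plus strand: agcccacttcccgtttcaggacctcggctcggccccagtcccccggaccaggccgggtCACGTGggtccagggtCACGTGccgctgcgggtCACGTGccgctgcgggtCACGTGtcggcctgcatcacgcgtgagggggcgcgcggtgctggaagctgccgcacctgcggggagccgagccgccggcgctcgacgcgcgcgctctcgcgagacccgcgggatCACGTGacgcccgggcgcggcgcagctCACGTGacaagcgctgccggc
MCOLN1, chr19:7522374-7522643, plus strand: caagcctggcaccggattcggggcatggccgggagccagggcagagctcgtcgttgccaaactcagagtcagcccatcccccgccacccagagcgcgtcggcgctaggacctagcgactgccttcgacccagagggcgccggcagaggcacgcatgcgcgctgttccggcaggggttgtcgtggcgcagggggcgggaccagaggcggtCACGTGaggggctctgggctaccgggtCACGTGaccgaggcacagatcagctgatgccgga
The LAMP1 window held 6 cores, starting at positions -192, -176, -159, -142, -28 and -1 from the gene start. The MCOLN1 window held 2, at -41 and -14.

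Of the other members with an E-box core, CTSA, CTSD and ATP6V0D1 rose after knock-down (below), and their 30-base windows are given to show how close to the gene start the core lies.
CTSA, chr20:45891281-45891310, plus strand: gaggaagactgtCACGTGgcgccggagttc
CTSA, chr20:45891298-45891327, plus strand: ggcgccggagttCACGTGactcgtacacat
CTSD, chr11:1763957-1763986, minus strand: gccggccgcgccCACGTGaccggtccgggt
ATP6V0D1, chr16:67481199-67481228, minus strand: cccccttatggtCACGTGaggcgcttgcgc
The cores started at -42 and -25 in CTSA, -47 in CTSD and -59 in ATP6V0D1. GAA, ATP6V1G1 and ATP6V0B also held cores and did not pass the knock-down test, and their windows are shown for comparison.
GAA, chr17:80101493-80101522, plus strand: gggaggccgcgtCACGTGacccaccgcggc
GAA, chr17:80101538-80101567, plus strand: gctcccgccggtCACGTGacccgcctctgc
ATP6V1G1, chr9:114587699-114587728, plus strand: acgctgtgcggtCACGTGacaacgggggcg
ATP6V0B, chr1:43974891-43974920, plus strand: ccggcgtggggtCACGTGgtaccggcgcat
ATP6V0B, chr1:43974909-43974938, plus strand: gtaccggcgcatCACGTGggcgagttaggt
Those cores started at -76 and -31 in GAA, -58 in ATP6V1G1, and -57 and -39 in ATP6V0B.

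Motifs of 3 lengths were searched, each its own reverse complement and so read on both strands, and each shorter one lying inside the longer ones. CACGTG was found in 8 of 30 members (26.7%), against 7.26% of all 35116 promoter windows and 12.7% of the 9944 genes with a promoter that were tested after knock-down. TCACGTGA was found in 6 of the 30 members, against 0.980% of windows and 2.34% of tested genes. The same motif with a further G before it and C after it, the full 10-letter palindrome, was found in 3 members, GAA, ATP6V1G1 and MCOLN1, against 0.353% of windows and 0.955% of tested genes. The motif was thus held by a larger share of members than of genes at large, for genes that were listed partly because they are known lysosomal genes. By response, TCACGTGA was held by 4 of the 16 members with a promoter that rose after knock-down and by 2 of the 14 others, and the full palindrome by 1 and 2. Among all tested genes with a promoter, 24.5% of the 233 with TCACGTGA were higher and 13.3% lower after knock-down, and of those without it 18.7% were higher and 20.2% lower. The shorter core CACGTG went the other way: 16.6% of the 1262 genes with it were higher and 22.7% lower, against 19.1% and 19.7% without it. For the full palindrome the shares were 28.4% and 12.6% of 95 genes, against 18.7% and 20.1%. These shares are a description without a test, and a match is not evidence of binding.

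Total counts per library ran from 25819144 to 36635268. BCLAF1 itself stood at 325, 328 and 312 CPM with the control hairpin, 115, 125 and 99.9 with the BCLAF1 hairpin and 1143, 1059 and 1034 in the RIP, without overlap. CPM is the share of a library's counts, scaled by TMM to correct for library composition. These values compare libraries for 1 gene and not genes with each other. Of the 8 markers of the line, PTPRC, CD33, FLT3, SPI1, CD44, HOXA9, MEIS1 and ITGA4, all exceeded 1 CPM in every shCONTROL library. Of 8 lymphoid markers, 4 were at 0 in all 9 libraries, while the list as a whole summed to 34.0 CPM on average in shCONTROL. Among 7 erythroid and platelet markers in the table, 5 were at 0 throughout, and HBA1 and HBA2 had counts in RIP libraries only.

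The knock-down comparison asks which lysosomal transcripts change when BCLAF1 is depleted. Of the 40 members tested, 24 rose and 0 fell (edgeR's quasi-likelihood F-test with Benjamini-Hochberg adjustment across 16961 genes, called under 0.05), while 16 did not pass. The background was 15.5% of all genes higher and 16.9% lower, 32.3% in either direction. The same 24 had every shBCLAF1 library above every shCONTROL library, against 24.2% of all genes. The members' median log2 fold change (log2FC) was 0.38, against 0.02 over all genes tested, and 34 of the 40 had a positive value. Of the 16 that did not pass, 14 had adjusted p from 0.0634 to 0.875 with overlapping libraries, and CTSB and ATP6V0A2 had every shBCLAF1 library below every shCONTROL library, against 25.1% of all genes. The increases were moderate: ATP6V1A and CTSA were the members above a log2FC of 1 that passed. Summed over the 41 genes, the libraries held 3836, 3759 and 3683 CPM in shCONTROL and 5064, 4877 and 4755 in shBCLAF1, or 130.3% of the control mean. When the spread was estimated from all 9 libraries together, 14 of the 24 passed and none was added (ATP6V0A1, ATP6V0C, ATP6V0E1, ATP6AP1, ATP6AP2, CTSS, GLA, LIPA, NPC2 and TFE3 no longer did), with all-gene counts of 1129 higher and 1318 lower.

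**Figure D1:**
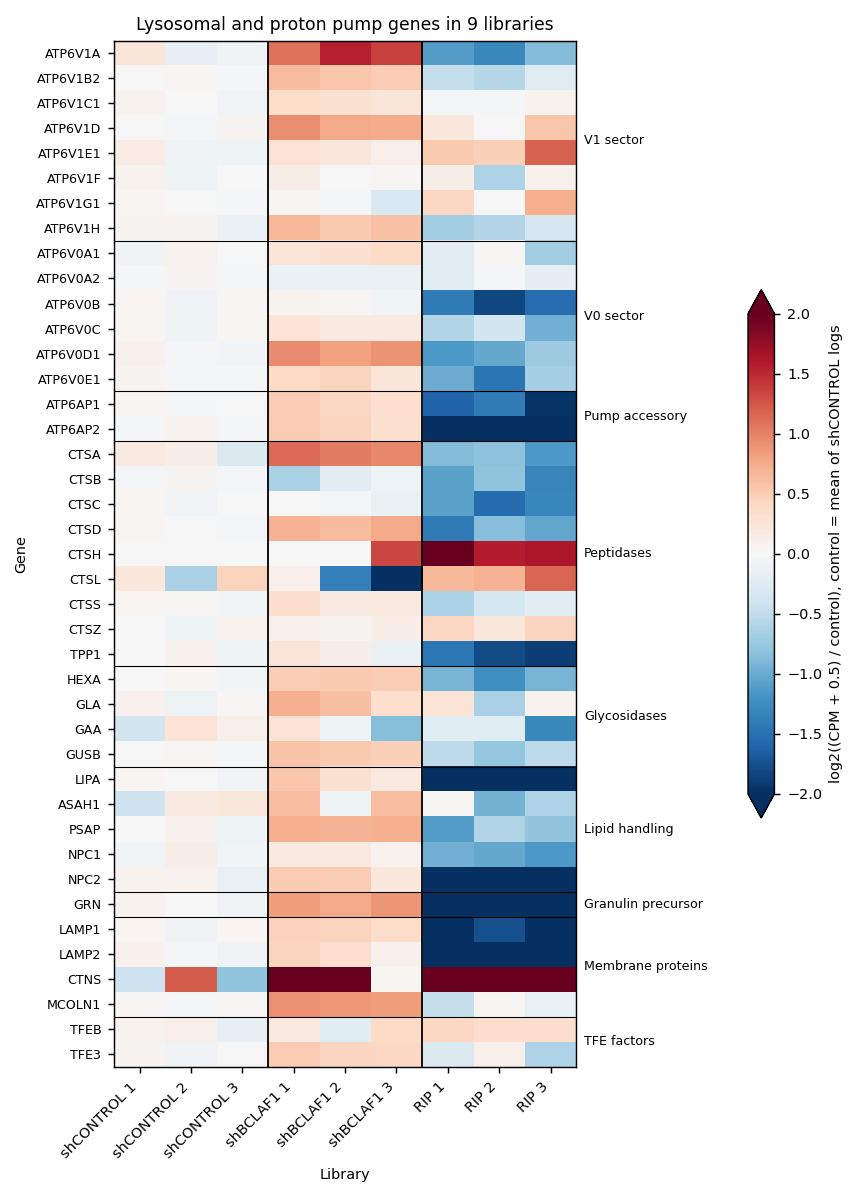
Each row is 1 gene and each column 1 library, and colour gives log2 of (CPM + 0.5) minus the mean of the 3 shCONTROL libraries on the same scale, cut at 2 in both directions. Most rows are red in the 3 shBCLAF1 columns, and GRN, NPC2, LIPA, LAMP2 and ATP6AP2 are the deepest blue in the RIP columns.

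Markers listed for myeloid maturation moved in the same comparisons. The list also holds the granule genes MPO, ELANE, AZU1, PRTN3 and CTSG, so its counts do not measure maturation alone. Of the 21 markers, 18 were tested, 11 rose (61.1%) and 0 fell, against 15.5% and 16.9% of all genes. The median log2FC was 0.81 in a range from -0.47 to 3.76, and 14 of the 18 were positive. Their summed level ran from 4108 to 4731 CPM in shCONTROL and from 7764 to 8064 in shBCLAF1. In the RIP 2 were higher and 10 lower (11.1% and 55.6%, against 24.6% and 24.7% of all genes). The sum there ran from 1294 to 1363 CPM. LYZ, the lysozyme of phagocytes, went from 729 ± 57.1 CPM to 2638 ± 194 after knock-down (SD, n = 3 for each). Much of the rise in the summed level was LYZ. CD14, FCN1 and S100A12 were at 0 in all 9 libraries. The part of these markers in the lysosomal results was not tested. Bulk RNA cannot tell more cells of a state from more RNA per cell.

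The RIP comparison sets RNA precipitated with BCLAF1 beside shCONTROL RNA-seq, which was made from fewer cells per sample. With no mock precipitation among the labels, background capture was not measured. Of 41 members, 24 were lower and 5 higher in the RIP than in shCONTROL RNA-seq (the same test across 16727 genes), against a background of 24.7% lower and 24.6% higher, 49.2% in either direction. CTSH, 1 of the 5, entered the test only because its RIP libraries passed the filter on low counts, so its call is no result, and 4 were higher without it. The RIP libraries lay wholly below shCONTROL for 25 members and wholly above for 6 (5 without CTSH), against 35.2% and 31.8% of all genes. Asking also for at least a 2-fold difference, 16 were lower and 2 higher (CTSH and CTNS), against 13.5% and 11.0% of all genes. The median was -0.62 for the members and -0.05 over all genes tested. Summed over the 41 genes, RIP libraries held 2105, 2051 and 2174 CPM, or 56.1% of the shCONTROL mean. The 2 comparisons share the shCONTROL libraries, so a member that happened to measure low in them would look higher in both. Under total-count scaling the all-gene median shifted by -0.11 (log2), and the members' median was -0.73.

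The members can be divided by where their proteins are made. Of the 30 genes for secreted or membrane-inserted proteins, 20 were lower in the RIP (66.7%) and 3 higher (2 without CTSH), with a median of -0.99. Of the 11 for cytosolic proteins (V1 subunits, the peripheral V0 subunit ATP6V0D1, TFEB and TFE3), 4 were lower (36.4%) and 2 higher (18.2%), with a median of -0.12. Of all genes tested, 24.7% were lower and 24.6% higher. The cytosolic shares rest on few genes and lie nearer to these. After knock-down the medians of these classes were 0.37 and 0.46. The classes were compared by counts and medians only, and the difference between them was not tested.

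**Figure D2:**
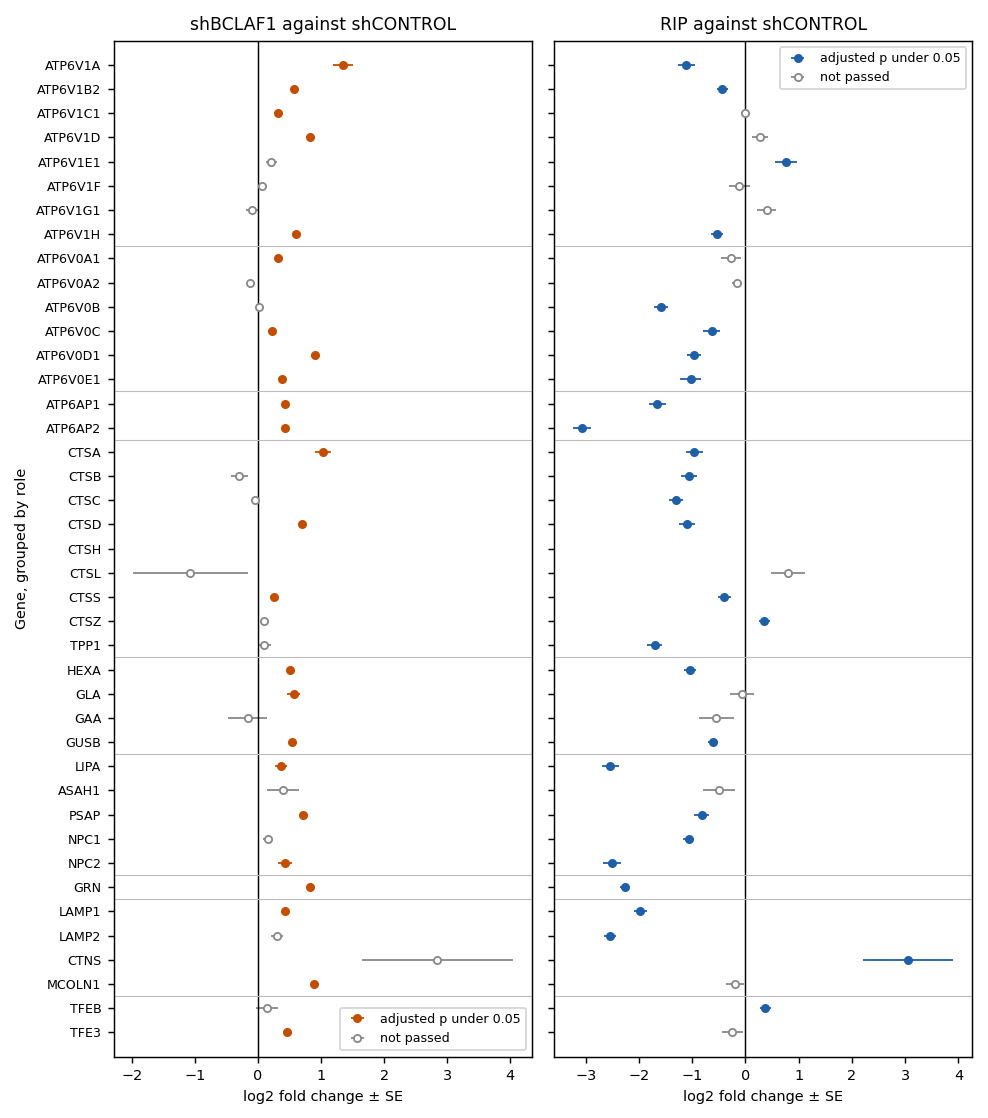
Points give the log2FC of each gene with its standard error, left for shBCLAF1 against shCONTROL and right for RIP against shCONTROL, grouped by role between grey lines. Filled points passed at an adjusted p under 0.05. CTSH has no point because its shCONTROL libraries were at 0. The filled points on the left all lie above 0, and those on the right lie below 0 except ATP6V1E1, CTSZ, CTNS and TFEB.

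In the V1 sector 5 of 8 subunits rose after knock-down (62.5%, against 15.5% of all genes). ATP6V1A, the catalytic subunit that hydrolyses ATP, measured 60.1, 45.4 and 48.3 CPM in shCONTROL replicates 1, 2 and 3 and 108, 150.1 and 132 in shBCLAF1. It had the largest log2FC of the members that passed, 1.35 (SE 0.15, adjusted p 0.00153), and the groups did not overlap. In the RIP it measured 23.5, 20.4 and 27.6 CPM, under every shCONTROL library (log2FC -1.11, SE 0.16, adjusted p 0.00234). ATP6V1D, a subunit of the rotating central shaft, measured 19.2, 18.7 and 20.02 CPM in shCONTROL and 37.3, 32.8 and 32.6 in shBCLAF1. Its log2FC was 0.83 (SE 0.07, adjusted p 6.73e-04), with no overlap. In the RIP ATP6V1D, at 22.4, 19.4 and 28.5 CPM, overlapped shCONTROL and did not pass (adjusted p 0.192).

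ATP6V1H, a regulatory subunit that bridges V1 and V0, rose from 69.7, 70.1 and 62.1 CPM in shCONTROL to 107, 97.3 and 101 in shBCLAF1 (log2FC 0.60, SE 0.06, adjusted p 0.00120). Its RIP libraries, at 41.8, 44.5 and 53.2 CPM, lay under all shCONTROL libraries (log2FC -0.54, SE 0.11, adjusted p 0.00977). ATP6V1B2, the non-catalytic partner of ATP6V1A in the head of the pump, rose by 0.57 on the log2 scale, and ATP6V1C1, a stator subunit, by 0.31. In the RIP ATP6V1B2 was lower (log2FC -0.43, adjusted p 0.0134), which no longer held when shCONTROL replicate 1 or 2 was left out (adjusted p 0.0558 and 0.0533). ATP6V1C1 had a RIP log2FC of -0.0011 (SE 0.08, adjusted p 0.991).

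The stator subunits ATP6V1E1 and ATP6V1G1 and the shaft subunit ATP6V1F did not pass after knock-down, with log2FCs of 0.21, -0.09 and 0.06. ATP6V1E1 did pass under total counts (adjusted p 0.0389), a replicate block (0.0489) and without shCONTROL replicate 1 (0.0279). ATP6V1E1 was the V1 subunit called higher in the RIP. It measured 65.7, 56.3 and 55.8 CPM in shCONTROL and 84.8, 82.4 and 135 in the RIP (log2FC 0.76, SE 0.21, adjusted p 0.0260), with RIP replicate 3 well above the others. It no longer passed when shCONTROL replicate 1, 2 or 3 was left out (adjusted p 0.0536, 0.0890 and 0.0902) and under a replicate block (0.0607). ATP6V1E1 has 3 pseudogenes in the table and ATP6V1G1 has 7, and how reads shared with such copies were counted is not given in the sources used here.

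In the V0 sector 4 of 6 subunits rose (66.7%, against 15.5% of all genes). ATP6V0D1, which couples the central shaft to the membrane ring, measured 54.2, 49.7 and 48.8 CPM in shCONTROL and 98.4, 89.9 and 95.2 in shBCLAF1, and the mean reached 186% of shCONTROL. Its change was 0.90 on the log2 scale (SE 0.06, adjusted p 2.63e-04). In the RIP it measured 22.7, 24.7 and 30.6 CPM, below every shCONTROL library (log2FC -0.97, SE 0.13, adjusted p 0.00187). ATP6V0E1, a small membrane subunit, rose from 43.9, 41.3 and 41.9 CPM to 56.2, 57.9 and 50.3 (log2FC 0.37, SE 0.07, adjusted p 0.00718), a call lost in the fit of 9 libraries (0.221). Its RIP libraries held 21.0, 15.1 and 26.5 CPM (log2FC -1.03, SE 0.20, adjusted p 0.00691). Neither pair of groups overlapped.

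The paralogues ATP6V0A1 and ATP6V0A2, alternative forms of the large subunit that lines the proton path, had different calls. ATP6V0A1 measured 64.0, 70.8 and 66.7 CPM in shCONTROL and 80.4, 82.8 and 88.3 in shBCLAF1 (log2FC 0.32, SE 0.06, adjusted p 0.00740). ATP6V0A2 measured 65.9, 70.3 and 66.2 CPM and then 62.4, 61.3 and 61.6 (log2FC -0.12, SE 0.04, adjusted p 0.0728), the shBCLAF1 libraries lying just under shCONTROL. In the fit of 9 libraries neither passed (0.245 for ATP6V0A1). The difference between the paralogues was not tested. Neither passed in the RIP, with log2FCs of -0.27 for ATP6V0A1 and -0.16 for ATP6V0A2. ATP6V0A1 did against both RNA-seq groups (adjusted p 0.0304), and ATP6V0A2 under total counts (0.0298) and without RIP replicate 2 (0.0292).

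ATP6V0B and ATP6V0C are proteolipids of the membrane ring. After knock-down ATP6V0B did not pass, at 107, 98.8 and 106 CPM in shCONTROL and 107, 105 and 100.2 in shBCLAF1 (log2FC 0.01, SE 0.05, adjusted p 0.875). In the RIP it measured 39.1, 29.1 and 35.8 CPM, the lowest ratio to shCONTROL among the V0 genes (log2FC -1.59, SE 0.12, adjusted p 3.55e-04). ATP6V0C rose slightly after knock-down (log2FC 0.21, SE 0.05, adjusted p 0.0213), a call lost without shBCLAF1 replicate 1 or 2 (adjusted p 0.0616 and 0.0563) and in the fit of 9 libraries (0.367). Its RIP log2FC was -0.64 (SE 0.16, adjusted p 0.0186), lost without shCONTROL replicate 1 or 3 (0.0650 and 0.0644).

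Both accessory genes of the pump rose after knock-down and were strongly lower in the RIP, against 15.5% higher and 24.7% lower among all genes. ATP6AP2, the prorenin receptor that also serves V-ATPase assembly, measured 60.8, 65.7 and 60.6 CPM in shCONTROL, 88.3, 85.1 and 78.1 in shBCLAF1 and 7.33, 5.87 and 9.02 in the RIP. Its knock-down log2FC was 0.43 (SE 0.06, adjusted p 0.00358). The RIP mean was 11.9% of shCONTROL, the lowest of the 41 genes (log2FC -3.07, SE 0.17, adjusted p 2.19e-04). ATP6AP1, another assembly factor, measured 85.6, 82.9 and 84.9 CPM in shCONTROL, 120.5, 113 and 106 in shBCLAF1 and 27.4, 31.7 and 21.3 in the RIP. Its log2FCs were 0.43 (SE 0.05, adjusted p 0.00217) and -1.66 (SE 0.16, adjusted p 6.05e-04). In the fit of 9 libraries the knock-down calls of ATP6AP1 and ATP6AP2 were lost (0.0684 and 0.0760).

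Among the 9 peptidases the response was uneven: 3 rose after knock-down, 5 did not pass and CTSH was not tested. The 3 were 37.5% of those tested, against 15.5% of all genes. CTSA, a carboxypeptidase that also protects other lysosomal enzymes, measured 78.4, 75.7 and 56.5 CPM in shCONTROL and 153, 141 and 135 in shBCLAF1. The mean reached 204% of shCONTROL (log2FC 1.03, SE 0.13, adjusted p 0.00212). CTSD, the main aspartic protease of lysosomes, rose from 164, 161 and 159 CPM to 262, 249.5 and 274 (log2FC 0.70, SE 0.04, adjusted p 2.41e-04). Both had groups that did not overlap. The RefSeq span of CTSA overlaps that of PLTP, and how reads in the shared part were assigned is not given. CTSS, a cysteine protease used in antigen presentation, rose from 108, 107 and 101 CPM to 135, 119 and 121 (log2FC 0.25, SE 0.06, adjusted p 0.0198), a call lost without shCONTROL replicate 3 (0.0554) and in the fit of 9 libraries (0.181).

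The cysteine protease CTSB went the other way without passing. It measured 216, 229 and 217 CPM in shCONTROL and 141, 189 and 206 in shBCLAF1 (log2FC -0.30, SE 0.14, adjusted p 0.149), with shBCLAF1 replicate 1 the lowest. CTSC, which activates granule proteases, CTSZ, a carboxypeptidase, and TPP1, a tripeptidyl peptidase, had log2FCs of -0.05, 0.09 and 0.10 and did not pass. CTSL, a cysteine protease, varied too widely to read: 15.7, 8.44 and 18.5 CPM in shCONTROL and 14.5, 4.92 and 0.736 in shBCLAF1 (log2FC -1.07, SE 0.91, adjusted p 0.430).

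In the RIP, 6 of the 9 peptidases (66.7%) were lower and 2 higher, or 1 higher without CTSH. Of all genes 24.7% were lower and 24.6% higher. TPP1 measured 183, 196 and 174 CPM in shCONTROL and 67.4, 52.9 and 49.6 in the RIP (log2FC -1.71, SE 0.14, adjusted p 3.70e-04). CTSC measured 285, 267 and 276 CPM and then 131, 94.5 and 111 (log2FC -1.30, SE 0.13, adjusted p 7.03e-04). CTSD, CTSB, CTSA and CTSS were also lower, with RIP log2FCs of -1.09, -1.06, -0.96 and -0.40. The RIP call of CTSS was lost in 4 of the 6 fits that left out 1 library, those without any shCONTROL replicate (adjusted p 0.111, 0.0998 and 0.0839) or RIP replicate 2 (0.0535), and with the block (0.0814).

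CTSZ was called higher in the RIP. It measured 146, 138 and 153 CPM in shCONTROL and 194, 169 and 198 in the RIP, without overlap (log2FC 0.36, SE 0.10, adjusted p 0.0232). CTSZ no longer passed when shCONTROL replicate 1, 2 or 3 or RIP replicate 1 was left out (adjusted p 0.0829, 0.0971, 0.0581 and 0.0538) and under total counts (0.131). CTSH, a cysteine aminopeptidase, was at 0 in all shCONTROL libraries and held 122, 28 and 30 counts in RIP replicates 1, 2 and 3. Against a floor of 3 counts per library, averaged over the group, its RIP level was, as a description, at least 26.5-fold higher, or at least 11.8-fold higher without RIP replicate 1. The RIP libraries also held HBA2, a haemoglobin gene, at 38.9, 0 and 57.6 CPM, and its part in the CTSH counts was not tested. In shBCLAF1 it held 0, 0 and 28 counts.

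Of the 4 glycosidases, 3 rose after knock-down by similar amounts (75.0%, against 15.5% of all genes). GLA, alpha-galactosidase, measured 50.5, 44.6 and 48.3 CPM in shCONTROL and 78.4, 72.5 and 60.3 in shBCLAF1 (log2FC 0.56, SE 0.11, adjusted p 0.00928). GUSB, beta-glucuronidase, measured 57.4, 58.1 and 55.1 CPM and then 84.9, 81.7 and 79.3 (log2FC 0.53, SE 0.04, adjusted p 5.36e-04). HEXA, the alpha chain of beta-hexosaminidase, measured 61.2, 62.7 and 58.2 CPM and then 85.5, 87.1 and 85.7 (log2FC 0.51, SE 0.04, adjusted p 5.24e-04). None of the 3 overlapped between groups, but GLA lost its call in the fit of 9 libraries (0.139). GAA, the acid alpha-glucosidase that degrades glycogen, was scattered, at 20.9, 32.9 and 29.0 CPM in shCONTROL and 33.1, 25.6 and 14.8 in shBCLAF1 (log2FC -0.17, SE 0.31, adjusted p 0.732).

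HEXA and GUSB were lower in the RIP, at 31.6, 25.5 and 31.7 CPM for HEXA (log2FC -1.04, SE 0.11, adjusted p 7.22e-04) and 39.4, 33.0 and 39.2 for GUSB (log2FC -0.62, SE 0.09, adjusted p 0.00271). GLA overlapped shCONTROL, with 57.8, 30.2 and 50.0 CPM in the RIP (log2FC -0.07, SE 0.23, adjusted p 0.831), and GAA did not pass (adjusted p 0.211). GUSB has 21 pseudogenes in the table whose counts come to 111% of its own, so its values are uncertain.

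**Figure D3:**
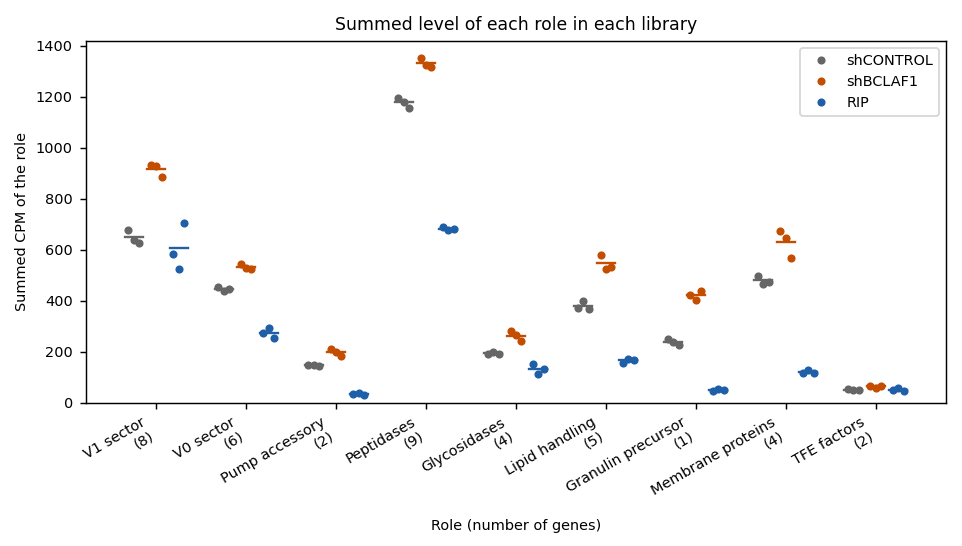
Points give the CPM of all genes of a role added up in each library, with a bar at the group mean, and the number of genes in parentheses. The summed V1 level in shBCLAF1 was 141% of shCONTROL, the lipid group 144% and the peptidases 113%, and the RIP means ran from 20.8% for GRN to 101% for the TFE factors.

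The genes of lipid handling all had positive knock-down values, and 3 of 5 passed. PSAP, whose product is cut into the saposins that present lipids to hydrolases, rose from 177, 188 and 168 CPM in shCONTROL to 295, 283 and 292 in shBCLAF1 (log2FC 0.71, SE 0.05, adjusted p 3.34e-04). NPC2, the soluble cholesterol carrier of the lumen, measured 27.6, 27.6 and 23.6 CPM and then 37.6, 37.5 and 30.3 (log2FC 0.42, SE 0.11, adjusted p 0.0316). LIPA, lysosomal acid lipase, measured 107, 105 and 100.3 CPM and then 153, 129 and 119 (log2FC 0.36, SE 0.10, adjusted p 0.0305). All 3 kept their groups apart, but NPC2 and LIPA passed narrowly. NPC2 lost its call without shCONTROL replicate 1, 2 or 3 or shBCLAF1 replicate 1 or 2 (adjusted p 0.0585, 0.0595, 0.0831, 0.0942 and 0.101). LIPA lost it without shCONTROL replicate 1, 2 or 3 or shBCLAF1 replicate 2 (0.0591, 0.0688, 0.0835 and 0.0672). In the fit of 9 libraries NPC2 was at 0.0947 and LIPA at 0.159. The membrane cholesterol transporter NPC1 (log2FC 0.15, adjusted p 0.160) and the acid ceramidase ASAH1 (0.39, adjusted p 0.291) did not pass.

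LIPA and NPC2 were among the genes most reduced in the RIP. LIPA measured 16.4, 15.2 and 22.2 CPM there (log2FC -2.54, SE 0.16, adjusted p 2.35e-04) and NPC2 3.80, 4.67 and 5.28 (log2FC -2.51, SE 0.16, adjusted p 2.53e-04), about 17% of shCONTROL each. NPC1 was lower, from 34.5, 38.9 and 34.3 CPM in shCONTROL to 18.2, 17.4 and 16.0 in the RIP (log2FC -1.06, SE 0.10, adjusted p 5.99e-04). PSAP was lower too (log2FC -0.82, adjusted p 0.00459), and ASAH1 did not pass (adjusted p 0.210). The RefSeq span of LIPA overlaps 8 other genes, IFIT1 and IFIT3 among them.

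GRN encodes progranulin, a secreted and lysosomal protein that is cleaved into granulins. It measured 250.02, 237 and 227 CPM in shCONTROL, 424, 403 and 438 in shBCLAF1 and 47.1, 51.8 and 49.6 in the RIP. The 3 groups stood well apart and varied little within themselves. After knock-down the mean was 177% of shCONTROL (log2FC 0.83, SE 0.05, adjusted p 2.38e-04), and in the RIP it was 20.8% (log2FC -2.27, SE 0.09, adjusted p 1.42e-04).

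**Figure D4:**
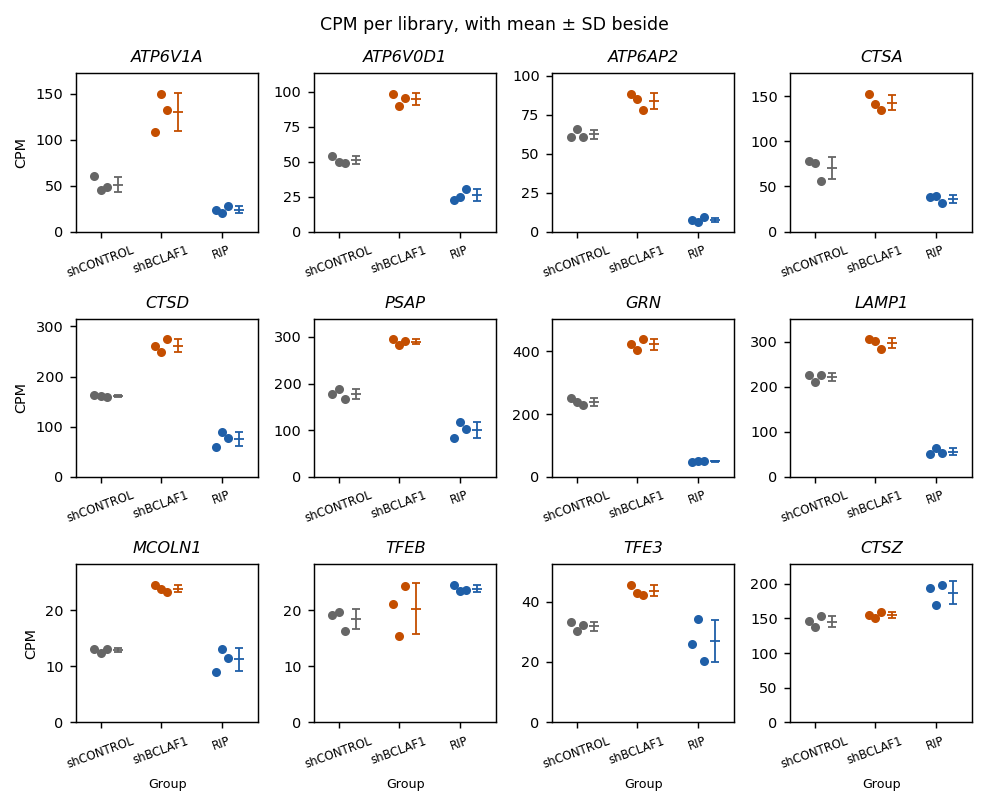
Each panel shows 1 gene, with a point per library and the group mean ± SD (n = 3) beside the points, on a CPM axis from 0. Levels in shBCLAF1 lie above shCONTROL in 10 of the 12 panels, with TFEB and CTSZ overlapping it, and RIP levels are near the axis for ATP6AP2.

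Of the 4 other membrane proteins, MCOLN1 and LAMP1 rose (50.0%, against 15.5% of all genes). MCOLN1, the calcium channel whose promoter is printed above, measured 13.0, 12.4 and 13.0 CPM in shCONTROL and 24.5, 23.8 and 23.2 in shBCLAF1 (log2FC 0.89, SE 0.06, adjusted p 3.20e-04). In the RIP it overlapped shCONTROL, at 9.02, 13.2 and 11.6 CPM (log2FC -0.19, SE 0.17, adjusted p 0.376), and it passed as lower against both RNA-seq groups (log2FC -0.63, adjusted p 0.00201). LAMP1, with 6 E-box cores, measured 227, 211 and 227 CPM in shCONTROL, 306, 302 and 285 in shBCLAF1 and 52.0, 64.8 and 52.7 in the RIP. Its log2FCs were 0.43 (SE 0.05, adjusted p 0.00134) and -1.97 (SE 0.12, adjusted p 2.35e-04).

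LAMP2, the partner glycoprotein of LAMP1 and a receptor for chaperone-mediated autophagy, measured 258, 240.0 and 233 CPM in shCONTROL and 332, 307 and 258 in shBCLAF1. It did not pass (log2FC 0.30, SE 0.10, adjusted p 0.0634), and it did without shBCLAF1 replicate 3, the lowest of its group (adjusted p 0.00800), with DESeq2 (0.0111), under total counts (0.0254) and with the replicate block (0.0369), within a range up to 0.164 over 12 alternatives. In the RIP it held 46.9, 37.1 and 41.6 CPM, 17.2% of shCONTROL (log2FC -2.55, SE 0.11, adjusted p 1.64e-04). CTNS, the cystine exporter, had 17, 85 and 9 counts in shCONTROL, 422, 464 and 31 in shBCLAF1 and 207, 321 and 256 in the RIP. Its knock-down log2FC of 2.85 (SE 1.20) had an adjusted p of 0.120, with shBCLAF1 replicate 3 low. It passed with DESeq2 (0.0130), under the block (0.0445) and without that library (0.0496). It was called higher in the RIP (log2FC 3.06, SE 0.84, adjusted p 0.0236), and lost that call without shCONTROL replicate 1 (0.0761) or RIP replicate 2 (0.0599). Against both RNA-seq groups its RIP log2FC was 1.65 (adjusted p 0.110). CTNS shares its RefSeq span with TAX1BP3, and how reads in the shared part were assigned is not given in the sources used here.

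Of the factors that bind the CLEAR element, TFE3 rose after knock-down and TFEB did not pass. TFEB measured 19.1, 19.6 and 16.3 CPM in shCONTROL and 21.1, 15.4 and 24.3 in shBCLAF1, overlapping throughout (log2FC 0.15, SE 0.17, adjusted p 0.583). TFE3 measured 33.2, 30.2 and 32.1 CPM and then 45.5, 43.0 and 42.3, without overlap (log2FC 0.46, SE 0.06, adjusted p 0.00217), a call lost in the fit of 9 libraries (0.113). In the RIP TFEB measured 24.5, 23.4 and 23.6 CPM, above shCONTROL (log2FC 0.37, SE 0.11, adjusted p 0.0283), which no longer held when shCONTROL replicate 1, 2 or 3 or RIP replicate 1 was left out (adjusted p 0.0650, 0.0561, 0.0981 and 0.0609), with the replicate block (0.0634), under total counts (0.134), in the fit of 9 libraries (0.0824) and against both RNA-seq groups (0.0892). TFE3, at 25.9, 34.2 and 20.5 CPM, overlapped shCONTROL there (adjusted p 0.342), and passed as lower against both RNA-seq groups (0.0236) and without RIP replicate 2 (0.0374).

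Other genes of the pathway came from wider lists. Of 82 tested lysosomal genes outside the 41 (other V-ATPase genes, hydrolases and membrane proteins), 28 were higher and 12 lower after knock-down, with a median log2FC of 0.15, and 10 were higher and 41 lower in the RIP, with a median of -0.55. The 28 higher are 34.1% of the list, against 15.5% of all genes, and the 12 lower are 14.6%, under the background of 16.9%. In the RIP 12.2% were higher and 50.0% lower, against 24.6% and 24.7% of all genes. Among hydrolases and activators, 12 of 38 rose and 5 fell (31.6% and 13.2%, against 15.5% and 16.9% of all genes). FUCA1, alpha-fucosidase, went from 11.4 ± 0.347 to 29.8 ± 0.687 CPM (SD, n = 3 each; log2FC 1.39, adjusted p 1.19e-04). GM2A, the activator that works with HEXA, went from 54.3 ± 2.04 to 112 ± 2.54 CPM (log2FC 1.05, adjusted p 1.19e-04). GALC, galactosylceramidase, fell from 22.3 ± 0.601 to 9.94 ± 0.959 CPM (log2FC -1.15, adjusted p 4.59e-04).

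Of 13 other V-ATPase genes tested, 7 rose and 1 fell after knock-down (53.8% and 7.69%, against 15.5% and 16.9% of all genes). RNASEK, a small V0-associated subunit, rose by 0.62 on the log2 scale (SE 0.05, adjusted p 5.15e-04), and DMXL2 and WDR7, which help assemble the pump, by 0.50 each. VMA21, an assembly chaperone, fell by 0.63 (SE 0.09, adjusted p 0.00330) and had a RIP log2FC of -2.60. In the RIP 6 of these 13 genes were higher and 4 lower (46.2% and 30.8%, against 24.6% and 24.7% of all genes). Their median log2FC there was 0.15. NCOA7, DMXL2 and DMXL1 were higher there (log2FCs 1.04, 0.56 and 0.49), and RNASEK was lower (-1.47). Of 31 other membrane proteins, 9 rose and 6 fell after knock-down, or 29.0% and 19.4%, against a background of 15.5% and 16.9%. CD63, a tetraspanin, had a log2FC of 0.61, SLC66A1, an exporter of basic amino acids, 0.48, OSTM1, the partner of the chloride transporter CLCN7, 0.78, and CLN6 -0.35.

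Among 25 genes of the TFE family, mTORC1 and its lysosomal anchor, 4 rose and 1 fell after knock-down. The 4 are 16.0%, near the background of 15.5%, and the 1 is 4.00%, under the background of 16.9%. RRAGB, a small GTPase that recruits mTORC1 to the lysosome, had a log2FC of 1.14 after knock-down (SE 0.12, adjusted p 0.00108) and 1.33 in the RIP. TFEC, a TFE family member restricted largely to myeloid cells, measured 39.3, 46.0 and 35.2 CPM in shCONTROL and 89.9, 76.9 and 89.7 in shBCLAF1 (log2FC 1.09, SE 0.11, adjusted p 0.00109). MLST8, a core subunit of mTORC1, measured 88.6, 96.6 and 92.2 CPM and then 35.3, 32.1 and 35.7 (log2FC -1.42, SE 0.06, adjusted p 1.19e-04). Neither pair of groups overlapped. MITF, the founding member of the family, did not pass after knock-down (log2FC -0.14, adjusted p 0.381). In the RIP, TFEC was higher (log2FC 1.10, SE 0.17, adjusted p 0.00299), and MLST8, at 82.2, 102 and 95.3 CPM, overlapped shCONTROL (adjusted p 0.977). Of the 25 genes, 7 were higher there and 7 lower (28.0% each, against 24.6% and 24.7% of all genes). LAMTOR4, LAMTOR3 and RRAGD were lower (log2FCs -1.82, -1.39 and -1.07).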

How the data were processed

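Per the submitters' processing notes, hg38, STAR 2.7.11b and StringTie 2.2.3 were used; their settings, the annotation and the use of strand are not given in the sources used here. Per the labels' protocols, the kit depleted rRNA and kept strand, and reads were paired. The authors deposited estimated counts (expected counts) per gene, whole numbers without normalization, so no rounding was needed. The value 1 was rarer (6 to 17 genes in a library) than the value 2 (103 to 197 genes), unlike plain read tallies. A further entry that names no gene, 0 to 3.75% of a library, was left out. Of 56541 genes, 39048 had a symbol.

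Each comparison was fitted on its own 6 libraries with edgeR 4.0.16 in R 4.3.3: default filter on low counts, TMM scaling, prior count of 2, group as the only term, quasi-likelihood test, Benjamini-Hochberg adjustment over all genes tested, threshold 0.05. Standard errors were derived from the coefficient and its F statistic. The fit was tested on simulated data. CPM were scaled over all 9 libraries. The floor of 3 counts (0.0789 to 0.118 CPM) covers counting error only. Alternatives included DESeq2 1.42.0, other scalings, no filter, 1 fit of 9 libraries, a replicate block and leaving out each library. The members, the wider lists and the tests were chosen with earlier results of these data known. Genes named with values per library were, by rule, TFEB, TFE3, any member at 0 in a library, and up to 3 called members per role and comparison with the largest change; others were given for context. Genes named from the wider lists were taken from the 3 with the smallest adjusted p per list, comparison and direction, with their values in the other comparison and MITF added. LYZ and the other cell type markers were named for context and not by this rule.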

Additional observations from a re-analysis of the deposited data

How the results depend on the processing

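After knock-down the count of members called higher was 21 to 26 with 1 library left out, and their median log2 fold change 0.35 to 0.44, and no member was called lower under any alternative. A single fit of 9 libraries gave 14 members higher, with 1129 genes higher and 1318 lower over all genes. Of the 24 calls, 20 held in all 6 fits that left out 1 library, and in the RIP 22 of 29, both counts with CTSH. The RIP test against a log2 fold change of 1 gave 732 genes higher and 1142 lower, because it asks for a larger change. Of the members 9 were lower and none higher apart from CTSH, whose call is no result. The 5 members higher in the RIP became 3 under total counts and 1 to 5 with 1 library left out. The members higher at least 2-fold became 1 when both RNA-seq groups served as reference and 1 to 2 with 1 library left out. Each of these counts of higher members includes CTSH. The RIP median of members was -0.73 under total counts, -0.83 against both RNA-seq groups and -0.72 to -0.61 with 1 library left out.

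Same-numbered libraries deviated together only weakly (correlations of 0.0212 to 0.0772 for knock-down and -0.0254 to 0.0146 for the RIP). Differently numbered libraries ran from -0.0414 to 0.0153 for knock-down, below the same-numbered ones, and from -0.0607 to 0.0521 for the RIP. Such small values cannot decide whether the replicate numbers pair the libraries. With the replicate number as a block, 27 members were higher after knock-down, and 3 were higher (CTSH included) and 23 lower in the RIP.

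Signs changed only for values that did not pass, given here as log2 fold changes. With 1 library left out after knock-down, ATP6V1G1 ran from -0.16 to 0.0018, ATP6V0B from -0.0143 to 0.0461, GAA from -0.44 to 0.0929 and TFEB from -0.0013 to 0.31. In the RIP, ATP6V1C1 ran from -0.0296 to 0.0365, ATP6V1F from -0.23 to 0.0843 and GLA from -0.26 to 0.16. ATP6V1C1 was also 0.00778 with DESeq2 size factors, 0.00785 with DESeq2, 0.00385 without a filter and 0.00631 in the fit of 9 libraries. ATP6V1D was -0.13 against both RNA-seq groups. The causes of these changes were not tested.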

Other observations

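Of 11 genes that sort or mature lysosomal enzymes, all were tested. Of these, 6 were higher (54.5%) and 0 lower after knock-down, against 15.5% and 16.9% of all genes. The median log2 fold change was 0.27. SUMF1, which activates sulfatases, rose from 14.2 ± 1.22 to 27.4 ± 0.894 CPM (SD, n = 3 each; log2 fold change 0.95, SE 0.08, edgeR adjusted p 6.01e-04). GNPTAB, which makes the mannose 6-phosphate sorting tag, rose from 35.8 ± 1.63 to 51.6 ± 2.06 CPM (log2 fold change 0.53, SE 0.06, adjusted p 0.00117), and GGA2, an adaptor of the sorting route, by 0.26 on the log2 scale. In the RIP GNPTAB and GGA2 were higher than in shCONTROL (log2 fold changes 0.62 and 0.81), and 4 of the 11 genes were higher and 2 lower, or 36.4% and 18.2%, against 24.6% and 24.7% of all genes.

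Of 27 autophagy genes tested, 10 were higher and 3 lower after knock-down (37.0% and 11.1%, against 15.5% and 16.9% of all genes), with a median of 0.08. In the RIP 12 were higher and 3 lower (44.4% and 11.1%, against 24.6% and 24.7% of all genes), with a median of 0.29. The tethering subunits VPS11, VPS18 and VPS16 rose by 0.49, 0.38 and 0.34 on the log2 scale after knock-down. VPS39, also a tethering subunit, ATG12 and PIK3C3 were the 3 lower, with log2 fold changes of -0.18, -0.35 and -0.20. ATG16L1 and ATG5, of the conjugation machinery, had RIP log2 fold changes of 1.27 and 1.09. The RIP median of the autophagy genes was above 0 and that of the 41 lysosomal genes was -0.62, a difference that was not tested.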
